A study of Arabidopsis thaliana with 11 samples.

Results

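The transcriptome of Arabidopsis thaliana seedlings that carry both xpo4-2 and cpr5 was compared with that of wild-type Col-0 seedlings. The comparison rests on 6 of the 11 libraries analysed here, namely 3 of the xpo4-2 cpr5 double mutant and 3 of wild type, chosen by their genotype labels with no measured value used. The 2 libraries of xpo4-2 alone and the 3 of cpr5 alone entered the same fit, and their levels are given beside some of the genes. All 4 genotypes were whole seedlings, 10 days old, grown on MS medium with sucrose and left without treatment. About 50 mg of tissue went into each RNA extraction. No transgene is named in the labels, which give neither the lesion of either allele nor the number of plants per sample. They also do not say whether the replicates were sown or extracted separately, so each p-value reflects only how far these samples differ among themselves, a spread that may be technical.

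Exportin-4 belongs to the importin-beta family of receptors that carry proteins across the nuclear pore, and CPR5 is a membrane nucleoporin whose loss is known to switch on salicylic acid (SA) defence, to start lesions and to stunt the plant. In leaves, SA is made mainly from chorismate in the plastid by isochorismate synthase, whose gene ICS1 is activated by SARD1 and CBP60G. SA is read by the NPR proteins, which with TGA factors control the pathogenesis-related (PR) genes. The jasmonate pathway, which makes a wound and herbivore hormone from plastid fatty acids, is often antagonised by SA.

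XPO4 (AT3G04490, chr3:1200331-1209970), the gene mutated in xpo4-2, had 19.6, 21.3 and 23.5 CPM in wild type and 2.09, 0 and 2.27 CPM in the double mutant, where CPM is the count scaled to the size of its library after TMM normalization. Its level was 1.001 and 4.796 CPM in xpo4-2 alone and 22.9, 18.3 and 27.7 CPM in cpr5 alone. The log2 change between double mutant and wild type was -3.85 ± 0.82 (± SE from the fit; edgeR quasi-likelihood test, adjusted p = 0.00403; values with ± in brackets below are log2 changes of the same comparison), and no double-mutant library reached any wild-type library. CPR5 (AT5G64930, chr5:25945683-25948397) had 8.08, 11.4 and 13.3 CPM in wild type and 23.6, 24.6 and 23.7 CPM in the double mutant, a log2 change of 1.13 ± 0.19 (edgeR, adjusted p = 9.30e-04), with 15.5, 17.8 and 14.98 CPM in cpr5 alone. CPR5 transcripts were thus higher in every double-mutant library than in every wild-type library. The position of the cpr5 lesion is not in the labels, so the CPR5 counts check nothing about that allele.

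Library totals ran from 16922732 to 23088104 counts. Of 21580 genes tested, 3900 rose (18.1%) and 4111 fell (19.1%) in the double mutant at an adjusted p under 0.05, where "rose" and "fell" are used below in that sense alone. A change above 2-fold passed its own test for 851 genes that rose (3.94%) and 1004 that fell (4.65%). The groups did not overlap for 5431 genes with the double mutant higher (25.2%) and 4999 with it lower (23.2%). On the first principal component, which held 51.4% of the variance, the double-mutant libraries lay at 80.4, 74.2 and 91.1, the cpr5 libraries between −4.78 and 2.15, and the wild-type libraries at −85.6, −53.6 and −27.8. Wild-type replicates therefore stood farther apart than double-mutant replicates. Leaving out 1 library moved the counts to between 3035 and 4254 higher and between 3525 and 4192 lower, and without wild-type replicate 3 the counts above 2-fold were 1212 higher and 1245 lower. The share of the called genes that were higher was 48.7% with TMM, 69.8% with library totals alone and 76.7% in the deposited TPM values. The median log2 change of all genes was 0.03, 0.32 and 0.41 in these settings, and the TPM setting also differs in quantification and test. Among gene lists, leaving out 1 library moved 40 of 106 counts by over 1.5 times, and 39 of these were counts of 5 or fewer. Changes are reported relative to the TMM scale. No source used here states whether the counting took the strand into account, so genes that overlap another gene on the opposite strand, among them SARD1, ICS2, EDS5, NPR1, RLP23, SOBIR1, RPS2, GSTF2, WRKY40, JAZ10, CAB1, ABI1, CAT2, HSP17.4, PORC, UGT74F2, NUA, MOS3, MOS7, TPL, EXT3, GGPS6, BAM6, AT4G02720 and AT5G42825, may hold reads of that neighbour. Since whole seedlings were sampled, fewer cells of a type and less RNA per cell cannot be told apart.

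**Figure D1:**
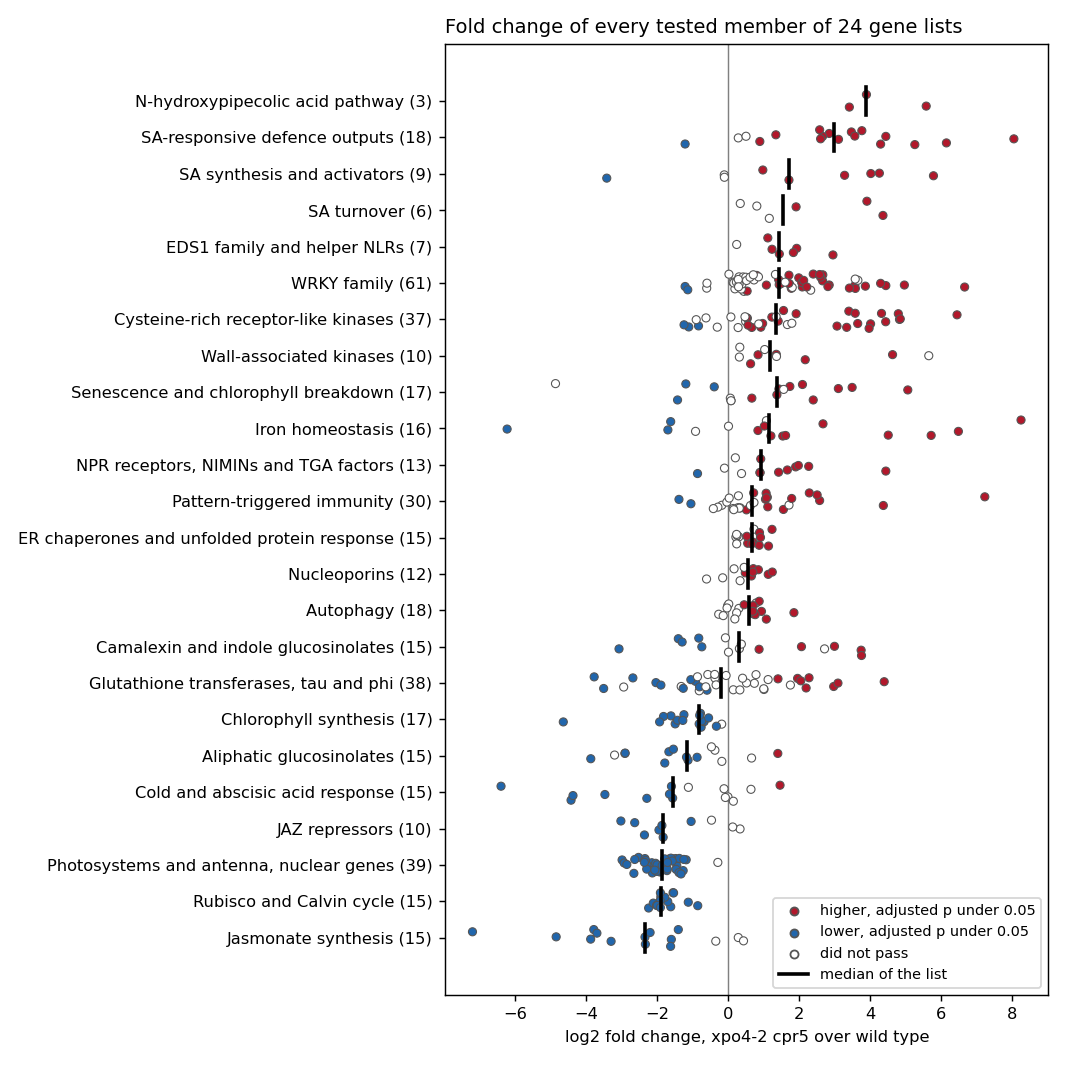
Log2 change between the xpo4-2 cpr5 double mutant and wild type (x axis) for the tested members of 24 gene lists (rows), 1 point per gene coloured by whether it rose, fell or did not pass the edgeR test, with a bar at each list's median. The rows are a selection, and other lists of the text, such as those of sensor NLR, heat shock and clock genes, are not shown. The medians of SA outputs and N-hydroxypipecolic acid genes lie to the right of 0 at 2.98 and 3.898, and those of jasmonate synthesis and photosystem genes lie to the left at -2.33 and -1.86.

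Promoters were read over the 250 bases before each annotated gene start, and the windows below belong to the genes that led their lists and hold the motif sought for that list. They are shown 5′ to 3′ on the strand of the gene, from the RefSeq annotation of TAIR10.1, with the match in capitals. CRK36, CRK37 and CRK39 encode cysteine-rich receptor-like kinases that stand near each other on chromosome 4, and their capitals mark the W-box, the site bound by WRKY factors (TTGACC or TTGACT on either strand, so that AGTCAA is the reverse complement of TTGACT). AOS, OPT3 and FER3 carry the G-box (CACGTG), which is bound by bHLH and bZIP factors. Capitals mark only the motif sought for the list of the gene, and copies of the other motifs stand unmarked. Among these are G-boxes in the windows of PSBQ-2 and COR15A and W-boxes in those of AOS and PSBQ-2. COR15A carries the CRT/DRE core (CCGAC, or GTCGG on the other strand), the site of CBF factors in cold response, and PSBQ-2 carries the I-box (GATAAG) known from light-regulated promoters.
CRK36 (chr4:2234690-2234939, minus strand): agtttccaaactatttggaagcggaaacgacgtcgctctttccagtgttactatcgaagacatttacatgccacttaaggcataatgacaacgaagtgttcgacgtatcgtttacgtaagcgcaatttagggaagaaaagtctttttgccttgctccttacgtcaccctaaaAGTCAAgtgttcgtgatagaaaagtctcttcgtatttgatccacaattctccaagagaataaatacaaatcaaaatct
CRK37 (chr4:2238120-2238369, plus strand): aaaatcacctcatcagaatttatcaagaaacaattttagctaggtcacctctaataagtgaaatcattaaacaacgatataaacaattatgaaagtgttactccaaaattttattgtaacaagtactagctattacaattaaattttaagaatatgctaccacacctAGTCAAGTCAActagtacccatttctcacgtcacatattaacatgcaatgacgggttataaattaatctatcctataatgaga
CRK39 (chr4:2259248-2259497, plus strand): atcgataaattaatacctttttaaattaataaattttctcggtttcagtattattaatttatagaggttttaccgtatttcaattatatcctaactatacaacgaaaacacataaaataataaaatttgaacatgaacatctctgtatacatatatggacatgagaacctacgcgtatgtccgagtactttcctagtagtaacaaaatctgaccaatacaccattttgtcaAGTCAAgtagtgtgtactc
AOS (chr5:17099596-17099845, minus strand): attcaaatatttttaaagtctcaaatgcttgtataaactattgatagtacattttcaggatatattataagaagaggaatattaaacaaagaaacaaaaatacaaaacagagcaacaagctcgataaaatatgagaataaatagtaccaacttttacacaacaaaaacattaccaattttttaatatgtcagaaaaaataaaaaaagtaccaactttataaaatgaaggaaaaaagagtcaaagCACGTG
COR15A (chr2:17712331-17712580, minus strand): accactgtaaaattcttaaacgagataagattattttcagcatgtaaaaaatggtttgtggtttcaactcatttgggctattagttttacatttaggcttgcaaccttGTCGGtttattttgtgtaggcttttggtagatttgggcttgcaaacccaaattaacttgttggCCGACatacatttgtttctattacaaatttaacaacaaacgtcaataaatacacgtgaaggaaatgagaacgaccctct
OPT3 (chr4:9250344-9250593, minus strand): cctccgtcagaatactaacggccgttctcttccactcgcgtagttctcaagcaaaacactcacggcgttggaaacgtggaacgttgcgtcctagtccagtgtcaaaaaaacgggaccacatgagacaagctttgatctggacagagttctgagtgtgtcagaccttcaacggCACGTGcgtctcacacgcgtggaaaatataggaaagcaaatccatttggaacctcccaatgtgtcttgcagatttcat
FER3 (chr3:20816036-20816285, minus strand): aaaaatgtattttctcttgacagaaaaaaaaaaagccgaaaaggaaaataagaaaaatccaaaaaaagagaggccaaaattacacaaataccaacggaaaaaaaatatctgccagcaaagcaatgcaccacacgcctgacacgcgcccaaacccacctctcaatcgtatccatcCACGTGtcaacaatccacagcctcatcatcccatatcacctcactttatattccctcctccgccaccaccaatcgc
PSBQ-2 (chr4:2673244-2673493, minus strand): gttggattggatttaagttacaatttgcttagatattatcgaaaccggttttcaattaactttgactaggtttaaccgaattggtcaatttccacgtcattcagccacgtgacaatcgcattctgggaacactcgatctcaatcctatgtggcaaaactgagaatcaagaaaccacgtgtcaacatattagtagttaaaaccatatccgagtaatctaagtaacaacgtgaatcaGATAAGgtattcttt

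The W-box of CRK36 lay 78 bases before the gene start, that of CRK39 19 bases before it, and CRK37 had matches at 83 and 78 bases before it that share 1 base. The G-box lay 6 bases before the start of AOS, 78 before OPT3 and 76 before FER3. Over all 21458 promoters of tested genes the W-box was present in 28.5%. It was present in 38.1% of the promoters of genes higher by more than 2-fold, in 34.0% of those of genes that rose, in 24.2% of those of genes that fell and in 21.3% of those of genes lower by more than 2-fold. The G-box ran the other way, from 3.76% of the promoters of genes higher by more than 2-fold through 7.15% of all promoters to 12.7% for genes lower by more than 2-fold. These shares are descriptions without a test, and a match is not a site shown to be bound. The W-box was in 64.9% of the 37 promoters of tested cysteine-rich receptor-like kinases, and its share was 65.2% among the 23 that rose and 63.6% among the 11 that did not pass. Within that family the W-box share was therefore close between the kinases that rose and those that did not. Among SA output genes the share was 22.2%, and the windows of SARD1, CBP60G, PBS3, AIG1, WRKY46 and WRKY70 hold no such match. The windows of AOC1, OPR3 and NEET hold no G-box, and those of ERD10 and KIN2 hold no CRT/DRE core. No I-box was found in those of PSAH-1, PSBQA, PGK1, SBPASE and RBCS3B. The I-box was in 12.4% of all promoters, in 12.8% for genes that rose and in 12.8% for genes that fell. In the photosystem and antenna list its share was 25.6% of 39 promoters.

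**Figure D2:**
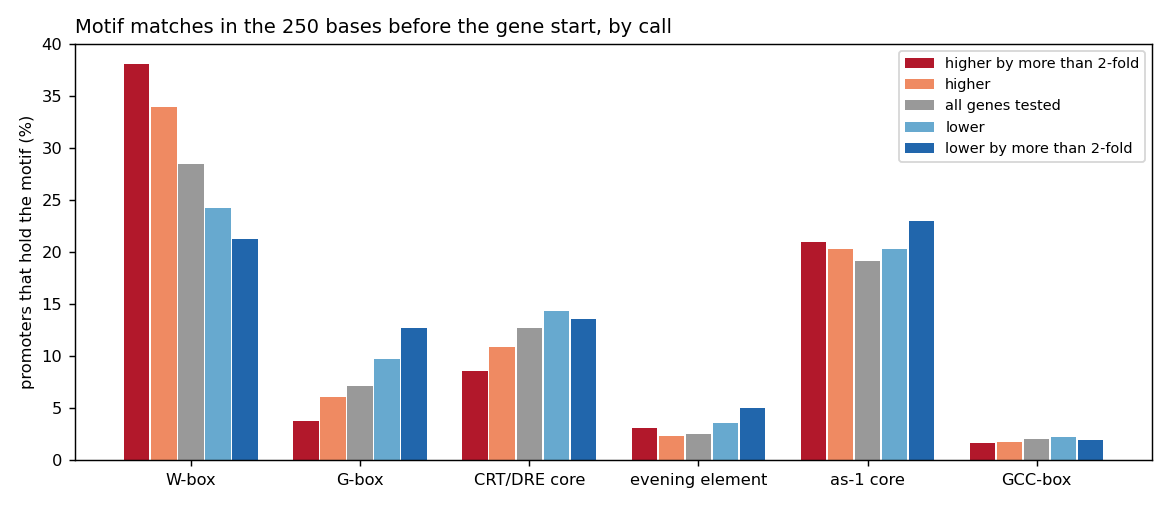
Share of promoters (y axis, percent, from 0) that hold each of 6 motifs within 250 bases before the gene start, for genes higher by more than 2-fold, genes that rose, all tested genes, genes that fell and genes lower by more than 2-fold in the double mutant. The W-box share falls from 38.1% to 21.3% across that order and the G-box share rises from 3.76% to 12.7%.

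Most SA synthesis genes were higher in the double mutant than in wild type. The SA synthesis and activators list had 9 tested genes, of which 6 rose and 1 fell, with a median log2 change of 1.71. SARD1 (AT1G73805, chr1:27744790-27749248), an activator of ICS1, had 18.7, 28.7 and 23.4 CPM in wild type and 492, 418 and 449 CPM in the double mutant, a log2 change of 4.26 ± 0.21 (edgeR, adjusted p = 2.51e-06). Its relative CBP60G had 16.5, 28.2 and 26.1 CPM in wild type and 238, 203 and 248 CPM in the double mutant (3.28 ± 0.21 on the log2 scale; edgeR, adjusted p = 6.89e-06). ICS1 (AT1G74710, chr1:28070295-28074177), the isochorismate synthase of pathogen-induced SA, had 13.98, 21.1 and 34.4 CPM in wild type and 420.4, 309 and 401 CPM in the double mutant (4.02 ± 0.31; edgeR, adjusted p = 1.78e-05). In these genes every double-mutant library stood several-fold above every wild-type library, and xpo4-2 alone stayed near wild type, at 39.1 and 31.1 CPM of SARD1 and 17.6 and 24.1 CPM of ICS1. In cpr5 alone the levels were between those of the other genotypes, at 183, 147 and 120.1 CPM of SARD1 and 57.7, 43.2 and 42.8 CPM of ICS1. PBS3, which conjugates isochorismate to glutamate, had 2.35, 7.63 and 8.47 CPM in wild type and 362, 272 and 389.9 CPM in the double mutant (5.79 ± 0.40; edgeR, adjusted p = 1.01e-05). EDS5, the plastid exporter of the pathway, differed less, with 44.7, 78.99 and 82.7 CPM in wild type and 140.4, 120.5 and 146 CPM in the double mutant (0.98 ± 0.26; edgeR, adjusted p = 0.0131). ICS2, the second isochorismate synthase, went the other way: it had 12.2, 15.4 and 15.8 CPM in wild type and 1.37, 1.67 and 1.01 CPM in the double mutant (-3.42 ± 0.38; edgeR, adjusted p = 1.04e-04), and its groups did not overlap.

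Some genes of SA turnover and those named of the companion signal N-hydroxypipecolic acid were also higher. The SA turnover list had 6 tested genes, of which 3 rose and 0 fell, with a median log2 change of 1.54, and 3 of 3 tested N-hydroxypipecolic acid genes rose and 0 fell, with a median log2 change of 3.898. DMR6, which hydroxylates SA, had 16.9, 30.1 and 26.1 CPM in wild type and 389, 350.1 and 362 CPM in the double mutant (3.91 ± 0.25; edgeR, adjusted p = 6.89e-06). Its relative DLO1 had 0.241, 3.07 and 1.68 CPM in wild type and 40.2, 32.7 and 30.3 CPM in the double mutant (4.36 ± 0.56; edgeR, adjusted p = 2.24e-04). UGT74F2, a glucosyltransferase of SA, had 48.1, 45.4 and 64.2 CPM in wild type and 196, 220.2 and 179 CPM in the double mutant (1.92 ± 0.15; edgeR, adjusted p = 1.65e-05). For these enzymes the double mutant lay above wild type in every library. FMO1 (AT1G19250, chr1:6650476-6653195), which makes N-hydroxypipecolic acid, had 1.69, 4.81 and 4.47 CPM in wild type and 207, 149 and 172 CPM in the double mutant (5.58 ± 0.46; edgeR, adjusted p = 2.35e-05). ALD1, which acts before it, had 0, 0.781 and 1.05 CPM in wild type and 10.1, 8.77 and 9.01 CPM in the double mutant (3.898 ± 0.78; edgeR, adjusted p = 0.00286). UGT76B1, which glucosylates N-hydroxypipecolic acid, had 3.92, 11.8 and 15.8 CPM in wild type and 136, 103 and 98.8 CPM in the double mutant (3.42 ± 0.41; edgeR, adjusted p = 1.58e-04). The named members of this short pathway were low in wild type and high in each double-mutant library.

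Whether the joint change exceeded the sum of the changes in the single mutants was tested with the interaction of the genotypes, that is, what xpo4-2 adds in the cpr5 background less what it adds in the wild-type background. The interaction passed the test as higher for 3.2% of all genes and as lower for 5.51%. It was 3.13 ± 0.44 for ICS1 (edgeR, adjusted p = 0.00361), 2.54 ± 0.53 for PBS3 (edgeR, adjusted p = 0.0163) and 2.98 ± 0.62 for FMO1 (edgeR, adjusted p = 0.0166). For these genes the double mutant was higher than the single effects add up to on the log2 scale. DMR6 had an interaction of 1.44 ± 0.35 (edgeR, adjusted p = 0.0296) and AIG1, an immune-associated GTP-binding protein gene, of 2.64 ± 0.68 (edgeR, adjusted p = 0.0372). The interaction did not pass for SARD1, at 1.02 ± 0.29 (edgeR, adjusted p = 0.053), nor for PR1, at 2.25 ± 1.03 (edgeR, adjusted p = 0.217). The xpo4-2 level in each of these values rests on 2 libraries. Most of these genes were picked by their double-mutant and wild-type difference, and the interaction reuses those libraries. This choice favours a large interaction, so these genes cannot be compared with the shares of all genes. The same holds for the interactions of genes picked in that way below.

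**Figure D3:**
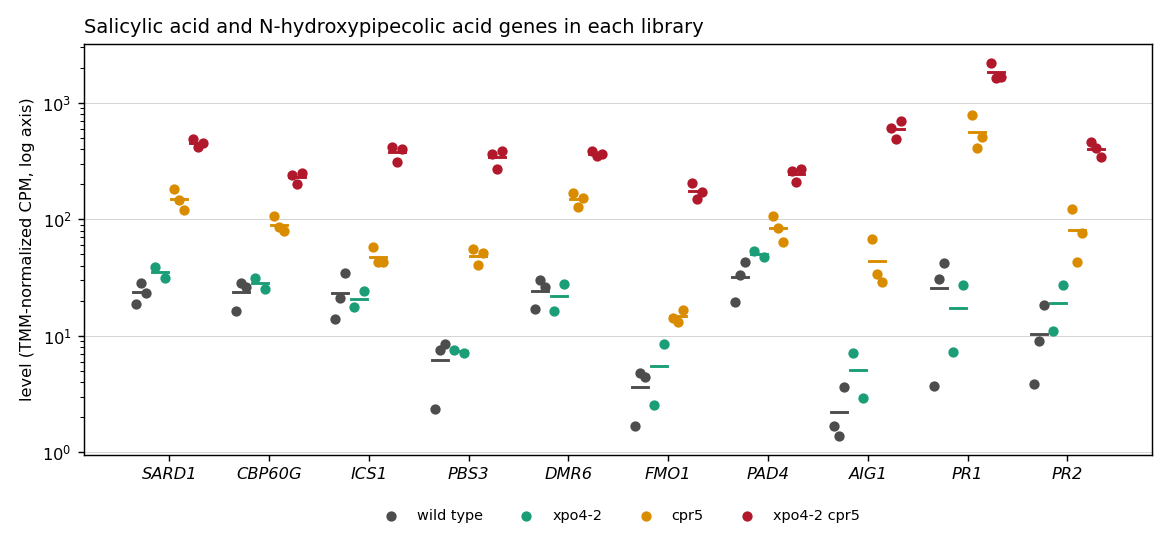
Level of 10 SA pathway genes (y axis, TMM-normalized CPM on a log axis) in each library of wild type, xpo4-2, cpr5 and xpo4-2 cpr5, with a line at each genotype's mean. In all 10 genes the 3 double-mutant libraries lie above the 3 wild-type libraries, for example at 420.4, 309 and 401 CPM against 13.98, 21.1 and 34.4 CPM for ICS1.

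Regulators that relay SA and EDS1 signals were higher as well. The EDS1 and helper receptor list had 7 tested genes, of which 6 rose and 0 fell, with a median log2 change of 1.44. EDS1 had 39.4, 52.3 and 39.8 CPM in wild type and 169, 134 and 167 CPM in the double mutant (1.84 ± 0.15; edgeR, adjusted p = 2.24e-05). Its partner PAD4 had 19.6, 33.2 and 42.9 CPM in wild type and 261, 209 and 272 CPM in the double mutant (2.95 ± 0.28; edgeR, adjusted p = 4.22e-05). The helper receptor ADR1 had 8.14, 11.1 and 15.1 CPM in wild type and 48.4, 37.3 and 45.4 CPM in the double mutant (1.93 ± 0.20; edgeR, adjusted p = 7.69e-05). None of these groups overlapped, while NDR1, a membrane protein needed by another class of receptors, had 20.3, 29.3 and 25.2 CPM in wild type and 32.04, 34.4 and 22.04 CPM in the double mutant, overlapping groups that did not pass (edgeR, adjusted p = 0.359). The NPR, NIMIN and TGA list had 13 tested genes, of which 9 rose and 1 fell, with a median log2 change of 0.92. NPR1, the coactivator that binds SA, had 58.2, 63.4 and 61.7 CPM in wild type and 121, 102 and 118 CPM in the double mutant (0.90 ± 0.11; edgeR, adjusted p = 1.72e-04). The corepressor NPR4 had 25.6, 22.003 and 20.7 CPM in wild type and 117, 116 and 97.03 CPM in the double mutant (2.27 ± 0.18; edgeR, adjusted p = 1.98e-05). NIMIN1, which binds NPR1, had 0.783, 1.38 and 1.68 CPM in wild type and 33.5, 32.1 and 19.1 CPM in the double mutant (4.44 ± 0.55; edgeR, adjusted p = 1.74e-04). Each NPR gene named here was higher in every double-mutant library than in every wild-type library. The interaction of NPR1 was 0.04 ± 0.16 and did not pass (edgeR, adjusted p = 0.91).

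Genes known as SA outputs took 0.682, 0.585 and 0.542% of the counts of the double-mutant libraries, 0.149, 0.155 and 0.133% of those of wild type and 0.282, 0.1897 and 0.1799% of those of cpr5 alone. In xpo4-2 alone the share was 0.0962 and 0.0832%, below every wild-type library. The SA output list had 18 tested genes, of which 15 rose and 1 fell, with a median log2 change of 2.98. PR1 (AT2G14610, chr2:6241640-6242541), the marker of SA signalling, had 3.68, 31.02 and 42.6 CPM in wild type and 2218, 1629 and 1659 CPM in the double mutant (6.15 ± 0.83; edgeR, adjusted p = 2.88e-04), and 786, 407 and 506 CPM in cpr5 alone. PR2, a beta-glucanase, had 3.86, 9.08 and 18.4 CPM in wild type and 458, 407 and 342 CPM in the double mutant (5.26 ± 0.61; edgeR, adjusted p = 1.24e-04). PR5, a thaumatin-like protein, had 7.59, 4.15 and 14.2 CPM in wild type and 88.8, 86.5 and 49.95 CPM in the double mutant (3.11 ± 0.43; edgeR, adjusted p = 3.37e-04). The double mutant was above wild type in every library for these PR genes, and wild-type replicate 1 was the lowest library for PR1 and PR2. AIG1 had 1.69, 1.38 and 3.63 CPM in wild type and 614, 491 and 702 CPM in the double mutant (8.05 ± 0.55; edgeR, adjusted p = 8.94e-06), the widest difference of the list. WRKY70, a regulator between SA and jasmonate signalling, had 49.1, 88.01 and 107 CPM in wild type and 549, 508 and 405 CPM in the double mutant (2.58 ± 0.28; edgeR, adjusted p = 9.48e-05). LURP1, known from response to a downy mildew, had 20.13, 48.6 and 54.7 CPM in wild type and 517, 538 and 318 CPM in the double mutant (3.47 ± 0.42; edgeR, adjusted p = 1.67e-04). The SA-responsive members PCC1 and GRXC9 did not pass: PCC1 had 93.7, 56.4 and 27.7 CPM in wild type and 92.6, 104 and 55.7 CPM in the double mutant, and GRXC9 had 45.3, 76.2 and 56.98 CPM in wild type and 82.1, 86.9 and 48.7 CPM in the double mutant, with groups that overlapped. WRKY18, a WRKY factor that restrains defence, was the member that fell, with 1320.0, 1286 and 893 CPM in wild type and 548, 570.3 and 392 CPM in the double mutant (-1.21 ± 0.24; edgeR, adjusted p = 0.00257).

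Receptors and kinases of the cell surface rose in large numbers. The cysteine-rich receptor-like kinase list had 37 tested genes, of which 23 rose and 3 fell, with a median log2 change of 1.35, and 1 fell without double-mutant replicate 2. CRK37 had 0.542, 0.0601 and 0.473 CPM in wild type and 35.999, 31.2 and 29.4 CPM in the double mutant (6.45 ± 0.54; edgeR, adjusted p = 2.50e-05). CRK36 had 3.68, 3.79 and 3.31 CPM in wild type and 75.7, 52.98 and 87.2 CPM in the double mutant (4.32 ± 0.33; edgeR, adjusted p = 1.48e-05). CRK39 had 0.603, 1.02 and 2.42 CPM in wild type and 38.2, 25.9 and 50.2 CPM in the double mutant (4.797 ± 0.44; edgeR, adjusted p = 3.73e-05). These are the kinases whose promoters are printed above, and in each the groups were far apart, with cpr5 alone at 13.7, 5.64 and 10.6 CPM of CRK36. CRK6 and CRK13 followed, with 187, 119.7 and 84.4 CPM and 123, 93.6 and 168 CPM in the double mutant against 1.33, 3.13 and 9.102 CPM and 4.88, 4.81 and 13.9 CPM in wild type. Near-identical kinases of such families can share reads, so the split between neighbours is less certain than their sum. The wall-associated kinase list had 10 tested genes, of which 5 rose and 0 fell, with a median log2 change of 1.19. WAK1, a receptor kinase that binds pectin, had 137, 227 and 269.7 CPM in wild type and 1044, 1006 and 810.1 CPM in the double mutant (2.17 ± 0.26; edgeR, adjusted p = 1.32e-04). WAK3 had 0.723, 12.1 and 17.5 CPM in wild type and 312, 226 and 217 CPM in the double mutant (4.63 ± 0.77; edgeR, adjusted p = 9.93e-04). The pattern-triggered immunity list had 30 tested genes, of which 14 rose and 2 fell, with a median log2 change of 0.67, a list whose counts depended on scaling (20 higher with library totals and 22 in the TPM values). RLP23 (AT2G32680, chr2:13859769-13862614), the receptor of a peptide from necrosis-inducing microbial proteins, had 0.362, 1.38 and 2.42 CPM in wild type and 229, 216 and 197 CPM in the double mutant (7.23 ± 0.59; edgeR, adjusted p = 2.24e-05). Its co-receptor SOBIR1 had 157, 174 and 197 CPM in wild type and 398, 362 and 335 CPM in the double mutant (1.05 ± 0.13; edgeR, adjusted p = 1.91e-04). The cytoplasmic kinase BIK1 had 32.7, 36.3 and 31.04 CPM in wild type and 61.3, 60.02 and 93.8 CPM in the double mutant (1.11 ± 0.17; edgeR, adjusted p = 5.93e-04). RLP23 was close to absent in wild type, whereas SOBIR1 and BIK1 were well expressed there. Intracellular sensor receptors rose at about the 18.1% share of all genes: 3 of 15 tested sensor NLR genes rose and 1 fell, with a median log2 change of 0.22, with 8 higher under library totals and 5 without wild-type replicate 3. RPS2, the receptor that guards RIN4, had 21.04, 26.9 and 23.7 CPM in wild type and 46.4, 51.2 and 58.3 CPM in the double mutant (1.12 ± 0.23; edgeR, adjusted p = 0.00363).

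Among transcription factors of the WRKY family, 30 of 61 tested WRKY genes rose and 2 fell, with a median log2 change of 1.44, and 43 rose with library totals and 46 in the TPM values. WRKY46 had 8.68, 14.8 and 18.204 CPM in wild type and 168, 153 and 176 CPM in the double mutant (3.57 ± 0.31; edgeR, adjusted p = 2.94e-05). WRKY50 had 1.57, 1.56 and 2.104 CPM in wild type and 23.3, 18.8 and 21.2 CPM in the double mutant (3.59 ± 0.34; edgeR, adjusted p = 4.14e-05). WRKY54 had 7.29, 17.6 and 15.2 CPM in wild type and 81.8, 68.7 and 103 CPM in the double mutant (2.66 ± 0.31; edgeR, adjusted p = 1.15e-04). In each the double mutant was above wild type in every library. WRKY38 had 2.05, 3.25 and 2.47 CPM in wild type and 72.7, 69.05 and 27.8 CPM in the double mutant (4.44 ± 0.67; edgeR, adjusted p = 5.72e-04), with double-mutant replicate 3 the lowest of its group. WRKY66 had no count in wild type and 0.774, 0.558 and 0.609 CPM in the double mutant, at least 11.3-fold higher against a floor of 3 counts over the wild-type group. WRKY40, which like WRKY18 restrains defence, fell with 279.8, 303 and 201 CPM in wild type and 133, 136 and 87.5 CPM in the double mutant (-1.14 ± 0.23; edgeR, adjusted p = 0.00323). WRKY18 and WRKY40 were the 2 members that fell, and their roles were not compared with those of the members that rose.

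Glutathione transferases went both ways. The tau and phi glutathione transferase list had 38 tested genes, of which 8 rose and 10 fell, with a median log2 change of -0.20. The shares were 21.1% and 26.3%, against 18.1% and 19.1% of all genes, and the list median changed sign with scaling, to 0.08 with library totals and 0.32 in the TPM values. GSTF2, a phi-class enzyme known to respond to SA and ethylene and 1 of the 5 genes that gained the most CPM, had 106, 146 and 385 CPM in wild type and 1769, 1542 and 1701 CPM in the double mutant (2.98 ± 0.41; edgeR, adjusted p = 3.46e-04). GSTF6 had 86.6, 117 and 350.0 CPM in wild type and 917, 752 and 1022 CPM in the double mutant (2.28 ± 0.48; edgeR, adjusted p = 0.00404). The tau-class GSTU5 had 1806, 2222 and 1312 CPM in wild type and 156, 160.4 and 73.1 CPM in the double mutant (-3.78 ± 0.32; edgeR, adjusted p = 2.50e-05). GSTU13 had 126, 142 and 119.5 CPM in wild type and 53.9, 57.1 and 50.2 CPM in the double mutant (-1.26 ± 0.11; edgeR, adjusted p = 2.63e-05). GSTF2 and GSTF6 were higher in every double-mutant library and GSTU5 and GSTU13 lower, and the phi and tau classes as a whole were not compared.

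The branches of defence chemistry that start from tryptophan and methionine differed. The camalexin and indole glucosinolates list had 15 tested genes, of which 5 rose and 5 fell, with a median log2 change of 0.32. PAD3, the last enzyme of the phytoalexin camalexin, had 3.56, 13.8 and 17.3 CPM in wild type and 179, 124 and 168 CPM in the double mutant (3.76 ± 0.71; edgeR, adjusted p = 0.00209). CYP71A12, which acts earlier, had 0.844, 15.3 and 23.2 CPM in wild type and 127, 102 and 85.8 CPM in the double mutant (2.998 ± 0.76; edgeR, adjusted p = 0.0103), and wild-type replicate 1 was far below the other wild-type libraries for both. MYB51, an activator of indole glucosinolate genes, had 39.1, 45.3 and 58.3 CPM in wild type and 188, 175 and 235 CPM in the double mutant (2.07 ± 0.17; edgeR, adjusted p = 2.24e-05). Its relative MYB34 had 54.5, 61.02 and 19.9 CPM in wild type and 5.01, 7.86 and 3.25 CPM in the double mutant (-3.08 ± 0.46; edgeR, adjusted p = 5.23e-04). CYP79B3, which converts tryptophan for both products, had 121, 167 and 103 CPM in wild type and 48.1, 45.6 and 54.1 CPM in the double mutant (-1.403 ± 0.18; edgeR, adjusted p = 2.16e-04). So PAD3, CYP71A12 and MYB51 were higher and MYB34 and CYP79B3 lower. CYP79B2 had 58.6, 146 and 101 CPM in wild type and 152, 133 and 96.5 CPM in the double mutant and did not pass (edgeR, adjusted p = 0.433). The aliphatic glucosinolates list had 15 tested genes, of which 1 rose and 9 fell, with a median log2 change of -1.17. MYB29, an activator of this pathway, had 17.5, 10.3 and 7.26 CPM in wild type and 0.9102, 0.912 and 0.568 CPM in the double mutant (-3.87 ± 0.40; edgeR, adjusted p = 6.79e-05). CYP79F1, its methionine-side entry enzyme, had 101, 99.7 and 76.2 CPM in wild type and 13.97, 15.3 and 7.71 CPM in the double mutant (-2.91 ± 0.24; edgeR, adjusted p = 2.37e-05). Single mutants held CYP79F1 near wild type, at 96.5 and 113 CPM in xpo4-2 and 75.7, 94.4 and 93.1 CPM in cpr5. MAM3, a chain-elongation enzyme, was the member that rose, with 10.7, 14.2 and 24.6 CPM in wild type and 51.2, 44.7 and 35.3 CPM in the double mutant (1.401 ± 0.30; edgeR, adjusted p = 0.00418).

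Most genes of jasmonate synthesis fell. The jasmonate synthesis list had 15 tested genes, of which 0 rose and 12 fell, with a median log2 change of -2.33, and it took 0.179, 0.177 and 0.163% of the counts of the double mutant. The share was 0.721, 0.929 and 0.4999% for wild type, 0.2698 and 0.248% for xpo4-2 and 0.503, 0.514 and 0.431% for cpr5, which overlapped wild type. LOX3, a lipoxygenase that starts the pathway, had 921, 1378 and 557 CPM in wild type and 81.3, 93.1 and 45.8 CPM in the double mutant (-3.698 ± 0.36; edgeR, adjusted p = 4.63e-05). AOS (AT5G42650, chr5:17097564-17099595), the allene oxide synthase, had 1116, 1562 and 633 CPM in wild type and 75.1, 69.96 and 80.8 CPM in the double mutant (-3.87 ± 0.30; edgeR, adjusted p = 1.69e-05). AOC1, an allene oxide cyclase, had 498, 649 and 293 CPM in wild type and 33.5, 32.6 and 38.1 CPM in the double mutant (-3.79 ± 0.27; edgeR, adjusted p = 1.10e-05). In these genes no double-mutant library came near a wild-type library, and wild-type replicate 3 was the lowest of its group. OPR3, the reductase in the peroxisome, had 1668, 2111 and 1195 CPM in wild type and 187, 215 and 103 CPM in the double mutant (-3.298 ± 0.30; edgeR, adjusted p = 3.70e-05). JAR1, which makes the active isoleucine conjugate, had 111, 78.8 and 74.4 CPM in wild type and 18.6, 39.9 and 28.6 CPM in the double mutant (-1.601 ± 0.38; edgeR, adjusted p = 0.00736). DAD1, a lipase that releases the fatty acid, had 2.95, 5.83 and 0.631 CPM in wild type and 0, 0 and 0.0406 CPM in the double mutant, and with so few counts in the double mutant its ratio is given as lower by 201-fold (95% counting interval 35.5 to 7976). The single mutants stood between for AOS, at 460.0 and 329.9 CPM in xpo4-2 and 578, 641 and 536 CPM in cpr5. The interaction was -1.47 ± 0.40 for AOS (edgeR, adjusted p = 0.0455), and it did not pass for AOC1 at -0.61 ± 0.36 (edgeR, adjusted p = 0.343) or OPR3 at -1.07 ± 0.41 (edgeR, adjusted p = 0.145).

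The repressors and targets of jasmonate signalling followed in part. The JAZ repressor list had 10 tested genes, of which 0 rose and 7 fell, with a median log2 change of -1.85. JAZ7 had 216, 254 and 135 CPM in wild type and 28.99, 32.5 and 13.1 CPM in the double mutant (-3.02 ± 0.36; edgeR, adjusted p = 1.36e-04). JAZ10 had 308, 352 and 161 CPM in wild type and 54.8, 65.8 and 39.8 CPM in the double mutant (-2.36 ± 0.29; edgeR, adjusted p = 1.80e-04). JAZ1 had 473, 688 and 529 CPM in wild type and 431, 427 and 363 CPM in the double mutant and did not pass (edgeR, adjusted p = 0.0526). The jasmonate and ethylene output list had 15 tested genes, of which 3 rose and 7 fell, with a median log2 change of -0.15, which turned positive in other scalings (0.08 with library totals). The count that rose was 5 without wild-type replicate 3 and 1 without double-mutant replicate 2. VSP2, a vegetative storage protein of the wound branch, had 383, 303 and 164 CPM in wild type and 7.96, 10.1 and 10.7 CPM in the double mutant (-4.88 ± 0.30; edgeR, adjusted p = 6.82e-06), with an interaction of -2.43 ± 0.39 (edgeR, adjusted p = 0.00564). CYP82G1, which makes volatile homoterpenes, had 181, 221 and 86.3 CPM in wild type and 0.9102, 2.03 and 0.893 CPM in the double mutant (-7.01 ± 0.61; edgeR, adjusted p = 2.85e-05). TPS04, the terpene synthase before it, had 27.2, 123 and 74.1 CPM in wild type and 7.01, 10.6 and 6.61 CPM in the double mutant (-3.22 ± 0.45; edgeR, adjusted p = 3.77e-04). These wound-branch genes were lower in every double-mutant library. PDF1.2, a defensin of the ethylene branch, was low throughout but higher in the double mutant, with 0.723, 0.361 and 0.526 CPM in wild type and 3.82, 8.06 and 3.53 CPM in the double mutant (3.24 ± 0.67; edgeR, adjusted p = 0.0034).

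**Figure D4:**
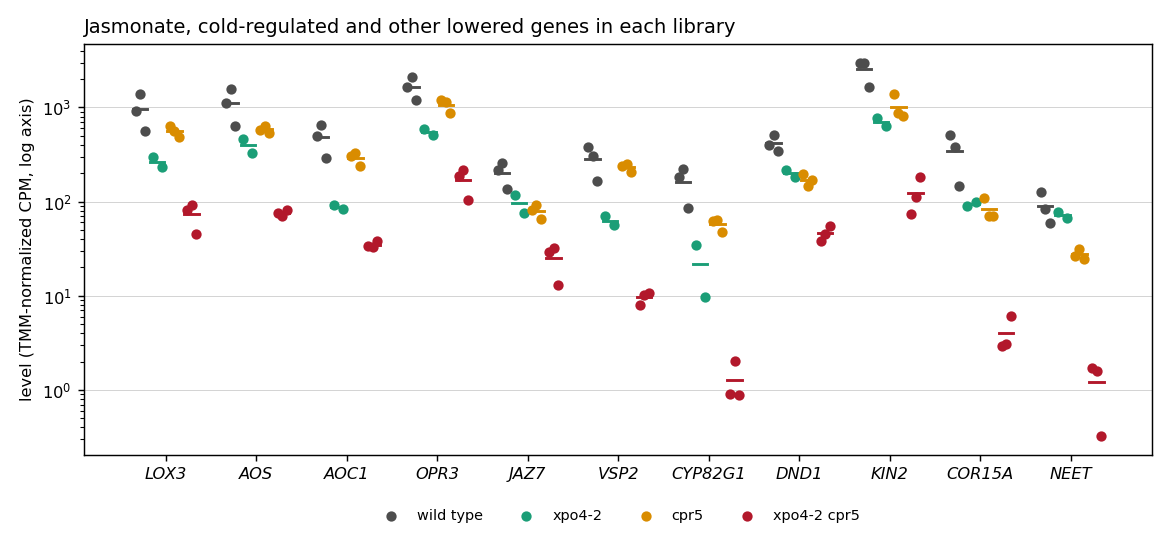
Level of 11 genes of jasmonate synthesis and response, cold response and others that fell (y axis, TMM-normalized CPM on a log axis) in each library of the 4 genotypes, with a line at each genotype's mean. In each gene the double-mutant libraries lie below the wild-type libraries, for example at 75.1, 69.96 and 80.8 CPM against 1116, 1562 and 633 CPM for AOS and 2.91, 3.09 and 6.17 CPM against 515, 377 and 146 CPM for COR15A.

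Listed photosynthesis genes took a smaller part of the transcriptome in the double mutant. The lists of nuclear photosystem and antenna genes and of Rubisco and the Calvin cycle, which hold none of the LHCB1 antenna genes such as CAB1, together made up 2.75, 3.25 and 2.23% of the double-mutant counts against 9.39, 8.51 and 6.48% for wild type. The shares were 11.1 and 9.79% in xpo4-2 alone, and 7.95, 8.14 and 7.61% in cpr5 alone. The photosystem and antenna list had 39 tested genes, of which 0 rose and 38 fell, with a median log2 change of -1.86, and 0 of 15 tested Rubisco and Calvin cycle genes rose and 15 fell, with a median log2 change of -1.896. CAB1, an antenna protein and 1 of the 5 genes that lost the most CPM, had 15054, 13686 and 8415 CPM in wild type and 3346, 3872 and 2520.5 CPM in the double mutant (-1.93 ± 0.24; edgeR, adjusted p = 2.01e-04). PSBQ-2, a protein of the oxygen-evolving complex whose promoter is printed above, had 2009, 1891 and 1318 CPM in wild type and 327, 408 and 281 CPM in the double mutant (-2.36 ± 0.20; edgeR, adjusted p = 2.35e-05). RBCS1A, the small subunit of Rubisco, had 9744, 9806 and 7230.0 CPM in wild type and 3063, 3559.9 and 2605 CPM in the double mutant (-1.54 ± 0.18; edgeR, adjusted p = 1.37e-04), but its copies are similar enough to share reads. SBPASE, a Calvin cycle phosphatase, had 526, 509 and 379 CPM in wild type and 117, 154 and 106 CPM in the double mutant (-1.91 ± 0.17; edgeR, adjusted p = 3.22e-05). In these genes the double mutant was below every wild-type library, and within wild type replicate 3 was the lowest. LHCB4.3, an antenna gene expressed at a low level, had 6.39, 11.4 and 14.6 CPM in wild type and 8.46, 9.68 and 8.32 CPM in the double mutant and was the gene of the photosystem list that did not pass (edgeR, adjusted p = 0.411).

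**Figure D5:**
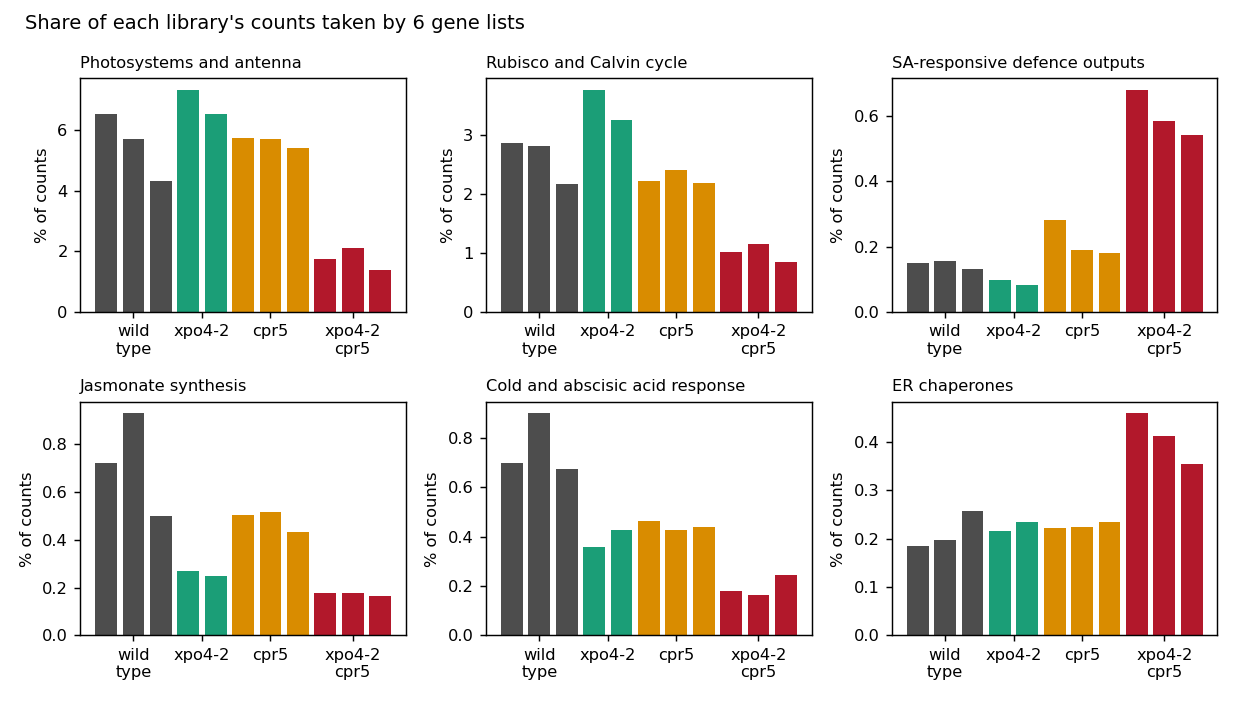
Share of each library's counts (y axis, percent, from 0) taken by 6 gene lists, 1 bar per library grouped by genotype. The listed photosystem genes take 1.75, 2.104 and 1.39% in the double mutant against 6.51, 5.697 and 4.31% in wild type, and SA outputs 0.682, 0.585 and 0.542% against 0.149, 0.155 and 0.133%.

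Most chlorophyll synthesis genes fell on the TMM scale. The chlorophyll synthesis list had 17 tested genes, of which 0 rose and 16 fell, with a median log2 change of -0.82, and 13 fell with library totals and 8 in the TPM values. HEMA1, which makes the first committed precursor, had 415, 338 and 245 CPM in wild type and 119, 150.2 and 102 CPM in the double mutant (-1.43 ± 0.20; edgeR, adjusted p = 3.27e-04). GUN5, a subunit of magnesium chelatase, had 668, 574 and 334 CPM in wild type and 167, 177 and 102 CPM in the double mutant (-1.82 ± 0.26; edgeR, adjusted p = 4.39e-04). PORC, a light-dependent reductase, had 188, 156 and 102 CPM in wild type and 42.9, 50.8 and 23.3 CPM in the double mutant (-1.93 ± 0.28; edgeR, adjusted p = 4.35e-04). All were lower in each double-mutant library. The light and chloroplast regulators list had 15 tested genes, of which 2 rose and 6 fell, with a median log2 change of 0.12, against 6 and 4 in the TPM values, and 4 rose without wild-type replicate 1. The paired activators of these genes went opposite ways: GLK1 had 57.6, 61.1 and 53.8 CPM in wild type and 23.3, 25.6 and 28.2 CPM in the double mutant (-1.16 ± 0.13; edgeR, adjusted p = 8.64e-05) and GLK2 had 9.16, 7.15 and 10.9 CPM in wild type and 14.1, 18.6 and 24.9 CPM in the double mutant (1.08 ± 0.26; edgeR, adjusted p = 0.00766). PIF4, a phytochrome-interacting factor, had 87.7, 77.5 and 49.3 CPM in wild type and 12.4, 15.3 and 6.82 CPM in the double mutant (-2.64 ± 0.29; edgeR, adjusted p = 9.94e-05). Genes of the plastid genome itself gave 28 lower and 0 higher of 76 tested, with a median of -1.31, and between 19 and 30 lower when 1 library was left out. Their share of the counts was 0.146, 0.177 and 0.133% in the double mutant and 0.439, 0.325 and 0.2998% in wild type. It was 0.314 and 0.167% in xpo4-2 alone and 0.165, 0.142 and 0.151% in cpr5 alone. The libraries were made from mRNA, and how well they represent plastid transcripts was not tested. Mitochondrial genome genes gave 2 higher and 1 lower of 45. Senescence genes rose in part: 9 of 17 tested senescence and chlorophyll breakdown genes rose and 3 fell, with a median log2 change of 1.37. The number that fell was 1 without double-mutant replicate 3 and 1 in the TPM values. ORE1, a NAC activator of leaf senescence, had 6.93, 5.05 and 24.3 CPM in wild type and 122, 105 and 87.1 CPM in the double mutant (3.11 ± 0.51; edgeR, adjusted p = 9.36e-04). NYE1, which starts chlorophyll breakdown, had 9.04, 13.8 and 9.31 CPM in wild type and 46.3, 42.3 and 48.6 CPM in the double mutant (2.095 ± 0.20; edgeR, adjusted p = 4.88e-05).

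Of the cold and abscisic acid response genes that passed, most were lower. The cold and abscisic acid response list had 15 tested genes, of which 1 rose and 8 fell, with a median log2 change of -1.56. COR15A (AT2G42540, chr2:17710441-17712330), a protein that protects chloroplast membranes during freezing, had 515, 377 and 146 CPM in wild type and 2.91, 3.09 and 6.17 CPM in the double mutant (-6.400 ± 0.52; edgeR, adjusted p = 2.17e-05), with an interaction of -2.47 ± 0.62 (edgeR, adjusted p = 0.0348). KIN2 had 2989.7, 2968 and 1639.9 CPM in wild type and 73.9, 111 and 182 CPM in the double mutant (-4.37 ± 0.39; edgeR, adjusted p = 3.25e-05). The dehydrin ERD10 had 1627, 2455 and 1764 CPM in wild type and 461, 405 and 328 CPM in the double mutant (-2.29 ± 0.18; edgeR, adjusted p = 1.98e-05). In all of them the double mutant was lowest, and the single mutants lay below wild type for COR15A, at 90.2 and 98.4 CPM in xpo4-2 and 109, 70.7 and 70.1 CPM in cpr5. The CRT/DRE core was present in 3 of the 15 promoters of this list and in 12.7% of all promoters. ABI1, a phosphatase that restrains abscisic acid signalling, was the member that rose, with 77.3, 79.7 and 108 CPM in wild type and 247, 249 and 235 CPM in the double mutant (1.46 ± 0.14; edgeR, adjusted p = 5.32e-05). Heat shock genes were mixed, as 2 of 11 tested heat shock genes rose and 3 fell, with a median log2 change of -1.13, and the share that rose was close to the 18.1% of all genes. The number that fell was 1 without double-mutant replicate 2 or without replicate 3, and 1 in the TPM values. HSFA2, a heat shock factor, had 93.8, 121 and 195 CPM in wild type and 17.8, 11.1 and 2.72 CPM in the double mutant (-3.702 ± 0.54; edgeR, adjusted p = 4.39e-04), with double-mutant replicate 3 the lowest. HSP17.4, a small chaperone, had 4.46, 7.69 and 10.3 CPM in wild type and 35.8, 34.3 and 36.2 CPM in the double mutant (2.24 ± 0.36; edgeR, adjusted p = 8.28e-04).

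Genes of the endoplasmic reticulum and of autophagy that passed were all higher. The ER chaperone and unfolded protein response list had 15 tested genes, of which 9 rose and 0 fell, with a median log2 change of 0.67. BIP2, the Hsp70 of the lumen, had 208, 262 and 342 CPM in wild type and 608, 511 and 372 CPM in the double mutant (0.88 ± 0.20; edgeR, adjusted p = 0.00628). The disulfide isomerase PDIL1-2 had 40.8, 46.2 and 64.7 CPM in wild type and 144, 117 and 97.1 CPM in the double mutant (1.24 ± 0.19; edgeR, adjusted p = 5.44e-04). CRT3, a calreticulin needed for folding of an immune receptor, had 79.3, 100.2 and 104 CPM in wild type and 229, 207 and 187 CPM in the double mutant (1.14 ± 0.14; edgeR, adjusted p = 1.51e-04). Every double-mutant library was above every wild-type library in these genes. The autophagy list had 18 tested genes, of which 9 rose and 0 fell, with a median log2 change of 0.57. ATG8H, a ubiquitin-like protein of the autophagosome, had 10.1, 15.6 and 31.99 CPM in wild type and 65.3, 76.5 and 67.4 CPM in the double mutant (1.85 ± 0.34; edgeR, adjusted p = 0.00177). ATG13, a subunit of the kinase complex, had 34.2, 33.5 and 40.7 CPM in wild type and 67.2, 74.8 and 66.1 CPM in the double mutant (0.94 ± 0.12; edgeR, adjusted p = 1.78e-04). Among oxidative stress genes, 4 of 13 tested oxidative and mitochondrial stress genes rose and 5 fell, with a median log2 change of 0.15, and 3 fell without double-mutant replicate 1. BCS1, a mitochondrial AAA protein known from stress responses, had 38.8, 75.8 and 92.2 CPM in wild type and 207, 172 and 169 CPM in the double mutant (1.405 ± 0.28; edgeR, adjusted p = 0.00259). FSD1, an iron superoxide dismutase, had 844, 1029 and 1338 CPM in wild type and 329.5, 376 and 288 CPM in the double mutant (-1.69 ± 0.19; edgeR, adjusted p = 9.17e-05). CAT2, the peroxisomal catalase of leaves, had 129.6, 119.8 and 80.1 CPM in wild type and 56.7, 47.2 and 53.9 CPM in the double mutant (-1.06 ± 0.17; edgeR, adjusted p = 8.62e-04).

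The transport machinery to which the mutated genes belong was examined as well. The exportin, importin and Ran list had 16 tested genes, of which 3 rose and 4 fell, with a median log2 change of -0.08, with XPO4 among those that fell, and the split was 5 higher and 2 lower with library totals. Without double-mutant replicate 3, 2 fell. In the main fit the shares of the list that rose and fell were 18.75% and 25%, against 18.1% and 19.1% of all genes. XPO1B, an export receptor of leucine-rich signals, had 15.6, 20.08 and 19.5 CPM in wild type and 38.3, 37.1 and 30.4 CPM in the double mutant (0.94 ± 0.14; edgeR, adjusted p = 5.29e-04). HST, the relative of exportin-5 needed for miRNA accumulation, had 13.9, 16.5 and 15.99 CPM in wild type and 26.9, 24.99 and 29.1 CPM in the double mutant (0.80 ± 0.14; edgeR, adjusted p = 0.00127). The family members named rose by under 2-fold, and CAS, the receptor that returns importin-alpha to the cytoplasm, fell with 110.2, 169 and 103 CPM in wild type and 42.2, 44.1 and 39.4 CPM in the double mutant (-1.61 ± 0.19; edgeR, adjusted p = 1.40e-04). The nucleoporin list had 12 tested genes, of which 7 rose and 0 fell, with a median log2 change of 0.57, CPR5 among those that rose. NUA, a nuclear basket protein, had 36.2, 37.9 and 51.3 CPM in wild type and 101, 94.1 and 103 CPM in the double mutant (1.24 ± 0.24; edgeR, adjusted p = 0.00256). NUP155 had 18.9, 30.4 and 31.04 CPM in wild type and 42.6, 45.8 and 56.6 CPM in the double mutant (0.85 ± 0.19; edgeR, adjusted p = 0.00497). MOS3 and MOS7, nucleoporins known from screens for suppressors of an autoactive immune receptor, had 43.96, 42.4 and 46.3 CPM and 13.7, 14.2 and 14.2 CPM in the double mutant against 25.8, 26.99 and 31.4 CPM and 7.29, 8.54 and 9.94 CPM in wild type. Each nucleoporin named was higher in every double-mutant library. The TOPLESS and DND list had 7 tested genes, of which 2 rose and 1 fell, with a median log2 change of 0.22, and with library totals 5 rose. The corepressor TPL had 115, 107 and 125 CPM in wild type and 180.5, 192 and 188 CPM in the double mutant (0.69 ± 0.10; edgeR, adjusted p = 4.89e-04). DND1 (AT5G15410, chr5:5003226-5006882), an ion channel gated by cyclic nucleotides and known for constitutive defence in its mutants, had 404, 507 and 343 CPM in wild type and 38.2, 44.9 and 54.6 CPM in the double mutant (-3.19 ± 0.20; edgeR, adjusted p = 6.82e-06). DND1 was lower in every double-mutant library than in any wild-type library, with 216 and 183 CPM in xpo4-2 and 194, 147 and 169 CPM in cpr5. It overlaps another annotated gene on the same strand, so reads of the pair could be split by the counting.

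Of the iron homeostasis genes named here, those of uptake and its regulation were higher and the ferritin gene was lower. The iron homeostasis list had 16 tested genes, of which 10 rose and 3 fell, with a median log2 change of 1.14. BHLH39, a bHLH factor of the iron deficiency response, had 0.181, 0.0601 and 0.105 CPM in wild type and 3.69, 3.04 and 1.58 CPM in the double mutant (4.51 ± 0.62; edgeR, adjusted p = 3.13e-04). IRT1, the root iron transporter, had 0, 0.0601 and 0 CPM in wild type and 1.09, 2.08 and 0.893 CPM in the double mutant, a ratio of 68.5-fold (95% counting interval 11.97 to 2736) over the single count in wild type. BHLH100 had no count in wild type and 3.87, 0.912 and 1.096 CPM in the double mutant, at least 34.1-fold higher against the same floor of 3 counts. These genes were near absent in wild type and low in the double mutant, and the single mutants were above wild type too. BHLH39 had 2.502 and 2.398 CPM in xpo4-2 and 2.13, 0.88 and 1.63 CPM in cpr5, and BHLH100 had 2.39 and 0.666 CPM and 1.92, 0.518 and 2.23 CPM. The interaction was -3.501 ± 0.80 for BHLH39 (edgeR, adjusted p = 0.0245), so the double mutant was below the sum of the single effects on the log2 scale. OPT3, an iron transporter of the phloem, had 33.5, 36.2 and 36.9 CPM in wild type and 87.3, 72.2 and 86.2 CPM in the double mutant (1.21 ± 0.11; edgeR, adjusted p = 3.54e-05). FER3, a ferritin that stores iron in plastids, had 129, 136 and 166 CPM in wild type and 51.7, 52.5 and 36.2 CPM in the double mutant (-1.62 ± 0.19; edgeR, adjusted p = 1.29e-04). OPT3 and FER3 changed in opposite directions with a G-box at nearly the same distance from the gene start, and 37.5% of the 16 promoters of this list hold one. NEET, an iron-sulfur protein of plastids and mitochondria, had 126, 83.02 and 58.7 CPM in wild type and 1.73, 1.57 and 0.325 CPM in the double mutant (-6.23 ± 0.48; edgeR, adjusted p = 1.65e-05), with an interaction of -4.21 ± 0.59 (edgeR, adjusted p = 0.00355).

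Root hair and root endodermis markers that passed were higher in the double mutant. Of 7 tested root hair markers 4 rose and 0 fell, and their summed share of the counts was 0.0169, 0.0112 and 0.0105% in the double mutant and 0.000173, 0.00115 and 0.00254% in wild type. Without wild-type replicate 3 the root hair markers that rose numbered 7. LRX1, an extensin-like protein of root hairs, had 0, 1.86 and 2.89 CPM in wild type and 35.2, 19.97 and 20.2 CPM in the double mutant (3.97 ± 0.85; edgeR, adjusted p = 0.00431). PRP3, a wall protein of the same cells, had 0.904, 5.53 and 10.3 CPM in wild type and 70.4, 46.7 and 34.5 CPM in the double mutant (3.17 ± 0.66; edgeR, adjusted p = 0.00369). Of 6 root endodermis markers 3 rose, with shares of 0.00624, 0.00551 and 0.00629% in the double mutant and 0.00217, 0.00322 and 0.00381% in wild type. SCR, a GRAS factor of the endodermis, had 14.1, 14.4 and 15.5 CPM in wild type and 25.7, 21.6 and 23.4 CPM in the double mutant (0.69 ± 0.13; edgeR, adjusted p = 0.00246). What part a different share of root cells has in the iron, photosynthesis and cell wall results was not tested. Trichome markers gave 3 lower of 8 (shares of 0.00143, 0.00158 and 0.000984% in the double mutant and 0.00259, 0.00185 and 0.00161% in wild type), with MYB23, a MYB factor of trichomes, at 8.74, 4.57 and 2.05 CPM in wild type and 1.27, 0.811 and 0.7304 CPM in the double mutant (-2.44 ± 0.50; edgeR, adjusted p = 0.0032). Of 10 stomatal lineage markers none passed by edgeR (shares of 0.00884, 0.0104 and 0.0124% in the double mutant and 0.006401, 0.00575 and 0.00927% in wild type). Phloem markers gave 1 lower of 5, shoot meristem markers 1 lower of 3, and xylem markers 0 of 6. Of all genes 19.1% fell, against 37.5% of the trichome, 20% of the phloem and 33.3% of the shoot meristem markers, which are short lists. Neither the stomatal nor the xylem list held a gene at an unadjusted p under 0.05, and DESeq2 called 0 genes in each. With library totals 1 stomatal marker rose, in the TPM values 3 did, and without wild-type replicate 3 1 did. The seed storage protein gene SESA1, the seed marker that could be tested, had 49.7, 67.8 and 38.1 CPM in wild type and 0.182, 0.203 and 0.487 CPM in the double mutant (-7.41 ± 0.48; edgeR, adjusted p = 6.89e-06), with 18.8 and 7.46 CPM in xpo4-2 and 8.003, 7.82 and 8.15 CPM in cpr5.

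Some genes had no count in wild type or none in the double mutant. CPL2, a phosphatase of the RNA polymerase tail, had no count in wild type and 26.9, 39.5 and 32.7 CPM in the double mutant, at least 575-fold higher against a floor of 3 counts over the group. AT4G02720 had 28.9, 26.6 and 28.4 CPM in the double mutant and no count in the other 8 libraries, and was at least 487-fold higher than wild type. GLR1.4, a glutamate receptor-like channel, had 21.1, 25.3 and 12.8 CPM and was at least 344-fold higher. CPL2 and GLR1.4 had counts in single mutants, at 16.3 and 32.7 CPM of CPL2 in xpo4-2 and 19.6, 11.6 and 7.85 CPM in cpr5. Of the genes with no count in the double mutant, AT5G42825 had 33.2, 16.7 and 19.5 CPM in wild type and was at least 511-fold lower, and GGPS6, a geranylgeranyl diphosphate synthase gene, had 9.28, 7.15 and 4.21 CPM and was at least 152-fold lower. BAM6, a beta-amylase gene, had 15.1, 16.4 and 5.73 CPM in wild type and 0.137, 0 and 0 CPM in the double mutant, lower by 268-fold (95% counting interval 91.1 to 1301). In all, 65 genes had no wild-type count and at least 10 counts in every double-mutant library, and 16 genes had the reverse pattern. These bounds hold where the counting gave no reads of the gene to another overlapping annotation, which was not tested.

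The genes with the smallest p-values and the largest shifts in abundance were of several kinds. AT5G63225 had 0.0603, 0.1803 and 0.158 CPM in wild type and 50.7, 42.7 and 43.99 CPM in the double mutant (8.35 ± 0.32; edgeR, adjusted p = 1.30e-06). BAP2, a repressor of cell death, had 1.15, 2.405 and 1.999 CPM in wild type and 186, 123 and 139 CPM in the double mutant (6.33 ± 0.29; edgeR, adjusted p = 1.79e-06). RGLG2, a RING ubiquitin ligase, had 18.8, 20.4 and 20.6 CPM in wild type and 123, 110.0 and 116 CPM in the double mutant (2.54 ± 0.11; edgeR, adjusted p = 1.79e-06). In these genes the groups did not overlap, and cpr5 alone was between them for BAP2, at 47.7, 34.99 and 32.7 CPM. GALS1, a galactan synthase of the cell wall, had 214, 214 and 183 CPM in wild type and 32.8, 31.3 and 27.4 CPM in the double mutant (-2.74 ± 0.13; edgeR, adjusted p = 1.79e-06). MLP28, of the major latex protein family, had 306, 246 and 227 CPM in wild type and 25.8, 28.8 and 22.9 CPM in the double mutant (-3.33 ± 0.15; edgeR, adjusted p = 1.79e-06). AAS, the aromatic aldehyde synthase, had 34.2, 43.3 and 27.6 CPM in wild type and 1.96, 1.67 and 2.15 CPM in the double mutant (-4.18 ± 0.21; edgeR, adjusted p = 2.51e-06). These were lower in each double-mutant library. Besides PR1 and GSTF2, the genes that gained the most CPM were GRP-3 with 1442, 1339 and 2337 CPM in wild type and 3872, 3975 and 3462 CPM in the double mutant (1.14 ± 0.21; edgeR, adjusted p = 0.00173), its close relative GRP3S with 1366, 983 and 2162 CPM in wild type and 3404, 4109 and 3045 CPM in the double mutant (1.23 ± 0.26; edgeR, adjusted p = 0.00402), and EXT3, an extensin of the cell wall, with 322, 964 and 1442 CPM in wild type and 3389, 2114 and 3212 CPM in the double mutant (1.68 ± 0.46; edgeR, adjusted p = 0.0148). Wild type was spread widely for EXT3, and its highest library still lay below the lowest double-mutant library.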

How the data were processed

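RNA-seq libraries from mRNA of whole seedlings were analysed, strand-specific per the labels' protocols. The gene counts were used as deposited by the authors. HISAT2 2.0.4, HTSeq 0.6.1p1 and the build TAIR10 are named per the submitters' processing notes without their roles, and the parameters of the counting are not given in the sources used here. TPM values per transcript, 71164 in all, were also deposited by the authors, per the name of the table made with kallisto. They were summed per gene and used only as an alternative. All columns could be assigned to a sample.

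Members and gene lists were chosen with earlier results of these data known. Of 22160 genes in the count table, 22011 matched the reference table by locus, 962 list members were found and 580 genes were removed by filterByExpr, which left 21580. All 11 libraries, with 1 term per genotype, were fitted with edgeR 4.0.16 in R 4.3.3 (TMM, glmQLFit, glmQLFTest, Benjamini-Hochberg adjustment over all tested genes, threshold 0.05; glmTreat for 2-fold). The common dispersion was 0.0930. Levels are TMM-normalized CPM. A group without counts was given a floor of 3 counts over the group, and a group with 1 to 3 counts a ratio with a 95% interval for counting error only. Fits were tested on simulated data. Alternatives were DESeq2 1.42.0, limma 3.58.1 on log2(TPM + 0.5) and log2(TPM + 0.1), other scalings and filters, the replicate number as a block, and leaving out each library.

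Replicate pairs differed by more than sampling noise (chi-square per degree of freedom of 32.7 to 79.0 in wild type and 16.2 to 48.0 in the double mutant), so each library was counted as 1 replicate. Genes named are the mutated genes, the list members with the 3 smallest p-values and other members by role, the 10 largest rises and falls that held whichever wild-type or double-mutant library was left out, the 5 smallest p-values per direction, and the 5 largest gains and losses in CPM.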

Additional observations from a re-analysis of the deposited data

Results flagged for a closer look

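The interaction (log2 scale, edgeR) was examined for the genes with the smallest p-values in each direction. In 7 of them the effect of xpo4-2 differed between the wild-type and the cpr5 background by this test. It did not pass for others, such as AT5G63225, at 1.57 ± 0.56 (edgeR, adjusted p = 0.176). Nor did it for BAP2, at 1.34 ± 0.39 (edgeR, adjusted p = 0.0582). Of all genes, the interaction passed as higher for 3.2% and as lower for 5.51%. The genes were picked by their double-mutant and wild-type difference, and the interaction reuses those libraries. This choice favours a large interaction, so the 7 cannot be compared with these shares. The interaction was -2.59 ± 0.21 for MLP28 (edgeR, adjusted p = 3.92e-04), where xpo4-2 made a change of -0.23 in wild type and -2.82 in cpr5. It was -2.36 ± 0.28 for AAS (edgeR, adjusted p = 0.00209), from -0.88 in wild type to -3.24 in cpr5. AT1G07440 had -1.93 ± 0.23 (edgeR, adjusted p = 0.00209), with xpo4-2 effects of -0.33 and -2.26. ENH1, a rubredoxin-like gene, had -1.73 ± 0.20 (edgeR, adjusted p = 0.00197), with effects of 0.15 and -1.58. GALS1 had -1.65 ± 0.18 (edgeR, adjusted p = 0.00171), with effects of -0.10 and -1.75. In these genes the effect of xpo4-2 was more negative in cpr5 than in wild type. AT3G47540, which overlaps a gene on the opposite strand, had 2.33 ± 0.21 (edgeR, adjusted p = 7.11e-04), with effects of -0.46 and 1.87. RGLG2 had 0.91 ± 0.16 (edgeR, adjusted p = 0.00754), with effects of 0.58 and 1.49. The effects in wild type rest on 2 xpo4-2 libraries.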

How the results depend on the processing

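Of 261 named genes that passed, 239 passed in every alternative that could test them, none changed direction, and the other 22 are not named with values here. With library totals alone 6494 genes were higher and 2815 lower. In limma on log2(TPM + 0.5) 8171 were higher, 2486 lower and 313 lower by more than 2-fold, with log2(TPM + 0.1) 7883, 2403 and 344, and without a filter 8127, 2468 and 309. DESeq2 gave 4440 and 4532. Leaving out 1 library gave 3035 to 4254 higher, 3525 to 4192 lower, 628 to 1212 higher by more than 2-fold and 781 to 1245 lower by more than 2-fold. Without double-mutant replicate 3 the counts were 3035 and 3580. The sign changed for 2 genes that did not pass: LHCB4.3 to 0.17, 0.18 and 0.17 in the TPM settings (with 0.5, with 0.1 and without a filter), and NRT1.7 to 0.0084 with library totals and 0.076 in each TPM setting. The cause was not tested. With the replicate block 3772 genes were higher and 3963 lower. The same-numbered libraries of wild type and double mutant had correlations of deviations of −0.081, −0.012 and 0.070. Differently numbered pairs ran from −0.116 to 0.122. These values cannot tell whether same-numbered libraries shared a sowing or an extraction, which the labels do not give. WRKY66, BHLH100 and others near 0 counts are limited by depth.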

Other observations

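In the main fit, the shares of the G2/M and DNA replication lists that rose or fell were below the 18.1% and 19.1% of all genes. The G2/M cell cycle list had 19 tested genes, of which 0 rose and 2 fell, with a median log2 change of -0.16, while with library totals 0 fell and the median was 0.13. edgeR called 0 of them lower without wild-type replicate 1, wild-type replicate 2 or double-mutant replicate 3. The DNA replication list had 19 tested genes, of which 2 rose and 0 fell, with a median log2 change of 0.48, against 6 higher with library totals and 11 in the TPM values, and 0 without any 1 of the cpr5 libraries or without double-mutant replicate 1. The SIM, SMR and KRP inhibitor list had 4 tested genes, of which 2 rose and 1 fell, with a median log2 change of 0.72, and 0 rose without wild-type replicate 1 or without double-mutant replicate 3. The DNA damage response list had 10 tested genes, of which 1 rose and 0 fell, with a median log2 change of 0.38. GMI1, a gene induced by DNA breaks, had 4.098, 6.13 and 3.58 CPM in wild type and 8.87, 10.5 and 8.16 CPM in the double mutant (0.99 ± 0.27; edgeR, adjusted p = 0.0146), the member that passed; it overlaps another gene on the opposite strand.

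Growth and hormone families gave mixed counts, beside the 18.1% of all genes that rose and the 19.1% that fell. The Aux/IAA list had 21 tested genes, of which 2 rose and 8 fell, with a median log2 change of -0.41, and 5 fell with library totals. IAA6 had 8.08, 7.03 and 3.52 CPM in wild type and 0.228, 0 and 0 CPM in the double mutant (-6.24 ± 0.82; edgeR, adjusted p = 2.56e-04). IAA8 had 196, 178 and 125 CPM in wild type and 73.5, 73.5 and 63.99 CPM in the double mutant (-1.24 ± 0.17; edgeR, adjusted p = 2.69e-04). Both were lower in every double-mutant library. The SAUR list had 13 tested genes, of which 1 rose and 1 fell, with a median log2 change of 0.28. The alpha-expansin list had 18 tested genes, of which 8 rose and 2 fell, with a median log2 change of 0.67, and 5 rose without wild-type replicate 2 or without double-mutant replicate 3. EXPA4, a wall-loosening protein, had 8.86, 9.98 and 6.58 CPM in wild type and 27.8, 22.8 and 26.4 CPM in the double mutant (1.599 ± 0.19; edgeR, adjusted p = 1.33e-04), and EXPA5 had 27.7, 18.8 and 15.8 CPM in wild type and 4.96, 6.08 and 5.36 CPM in the double mutant (-1.92 ± 0.26; edgeR, adjusted p = 3.04e-04), in opposite directions.

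Nutrient genes were mixed as well, where 18.1% of all genes rose and 19.1% fell. The nitrate transport and reduction list had 11 tested genes, of which 4 rose and 2 fell, with a median log2 change of -0.12, and that median was 0.16 with library totals. NIA1, a nitrate reductase, had 88.2, 69.7 and 70.8 CPM in wild type and 209.6, 203 and 518 CPM in the double mutant (2.02 ± 0.32; edgeR, adjusted p = 7.14e-04), with double-mutant replicate 3 the highest. NIR1, the nitrite reductase, had 190.4, 200.4 and 147 CPM in wild type and 95.4, 86.4 and 68.9 CPM in the double mutant (-1.102 ± 0.16; edgeR, adjusted p = 4.92e-04). The phloem nitrate transporter gene NRT1.7 had 179.7, 261 and 233 CPM in wild type and 211, 109 and 233 CPM in the double mutant and did not pass (edgeR, adjusted p = 0.42), whereas its level was 1.45 and 2.49 CPM in xpo4-2 and 11.3, 10.9 and 10.9 CPM in cpr5. Wild type and double mutant were thus both far above the single mutants. The phosphate starvation list had 16 tested genes, of which 4 rose and 5 fell, with a median log2 change of 0.25, with 0 higher without double-mutant replicate 3, 1 without wild-type replicate 2 and 1 without double-mutant replicate 1. IPS1, a noncoding RNA that mimics a miRNA target, had 33.99, 72.4 and 125 CPM in wild type and 20.6, 20.4 and 7.02 CPM in the double mutant (-2.27 ± 0.55; edgeR, adjusted p = 0.00861), and 4.503 and 2.53 CPM in xpo4-2 and 1.49, 4.92 and 3.62 CPM in cpr5.

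Clock and pigment genes were mixed. The circadian clock list had 13 tested genes, of which 2 rose and 3 fell, with a median log2 change of -0.05, and that median also changed sign with library totals, to 0.23. The shares of 15.4% and 23.1% were near the 18.1% and 19.1% of all genes. PRR7 had 109, 105 and 103 CPM in wild type and 53.2, 50.5 and 53.2 CPM in the double mutant (-1.02 ± 0.14; edgeR, adjusted p = 2.69e-04), and PRR9 had 1.27, 1.92 and 1.37 CPM in wild type and 7.01, 4.71 and 3.08 CPM in the double mutant (1.696 ± 0.40; edgeR, adjusted p = 0.00731). The flavonoid and anthocyanin list had 15 tested genes, of which 1 rose and 2 fell, with a median log2 change of -0.67, and 4 fell without wild-type replicate 3. PAP1, an activator of anthocyanin genes, had 4.64, 2.34 and 1.95 CPM in wild type and 0.091, 0.203 and 0 CPM in the double mutant (-4.895 ± 0.82; edgeR, adjusted p = 0.00107). The phenylpropanoid and monolignol synthesis list had 16 tested genes, of which 4 rose and 2 fell, with a median log2 change of 0.33, against 8 higher with library totals and 7 without wild-type replicate 3. None fell without double-mutant replicate 1. PAL1, the entry enzyme, had 60.996, 146 and 156 CPM in wild type and 279, 246 and 269 CPM in the double mutant (1.13 ± 0.31; edgeR, adjusted p = 0.0148).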
